A study of Rattus norvegicus with 9 samples.

Results

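Hyaluronan is a long, unsulfated sugar polymer of the extracellular matrix, and the genes described here make it, bind it or cut it. The 7 genes listed were Has1 and Has2, which encode synthases, Tnfaip6 and Vcan, which encode the binding proteins TSG-6 and versican, Cd44, which encodes the main cell-surface receptor, and Hyal1 and Hyal2, which encode hyaluronidases. They were matched by symbol to array entries that the probe table pairs with 1 gene symbol, and where a gene had several entries the one used was chosen by its mean level over all 9 arrays. A value was obtained for 6 of the 7 genes, each from the single entry it had, out of 14506 genes tested. No entry was paired with Tnfaip6 alone, so it is not analysed here. The genes were listed with earlier results of these data known, so every adjusted p below comes from the fit over all genes and describes these arrays, without being independent support.

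Stellate cells are the matrix-depositing, fibroblast-like cells of the pancreas. They came from male Sprague Dawley rats by density gradient centrifugation and were grown for 72 hours in medium with 10% foetal bovine serum, at 1000000 cells in each dish of 10 cm. The surface was Matrigel (2 arrays), a basement membrane extract, collagen I (3 arrays), the fibrillar collagen of scar, or plastic (4 arrays), and the design asks how expression differed between these surfaces. Serum, time, strain and sex were the same on all 3 surfaces. Expression was read on Affymetrix Rat Gene 1.0 ST arrays as log2 values. Sample titles carry a letter that the labels do not explain: A and S on Matrigel, A, P and Z on collagen I, and A, P, S and Z on plastic. Whether the arrays stand for separate animals or cell preparations is not stated in the labels, nor is the thickness of the coatings, so the spread behind each p-value may be technical.

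Synthases at the plasma membrane build hyaluronan from 2 nucleotide sugars, UDP-glucuronic acid and UDP-N-acetylglucosamine, and push the growing chain out of the cell. Outside, versican and TSG-6 organise it into a coat, and CD44 ties that coat to the cell. In mammals HYAL2, held at the cell surface, and HYAL1, in lysosomes, cut it. Stellate cells and related fibroblasts are known as a source of the hyaluronan-rich stroma of pancreatic cancer.

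The 250 bases before the annotated start of 3 of the genes are shown because Cd44 and Vcan were both higher on both matrices, whereas Has1 was lower on Matrigel. They were taken from the RefSeq promoter table, build GRCr8, which held 6 of the 7 genes, Has2 being the one without an entry. Capitals mark matches, on either strand, to 7 motifs. AP-1 was searched as TGANTCA and the cyclic AMP element CRE as TGACGTCA. The TATA motif was searched as TATAAA and the E-box as CACGTG. For the GC box the letters were GGGCGG. The CCAAT motif was searched as named. The motif of TEAD factors was searched as GGAATG. Has1 lies at chr1:67378445-67378694, Vcan at chr2:22595956-22596205 and Cd44 at chr3:109699425-109699674, all on the minus strand.
Has1: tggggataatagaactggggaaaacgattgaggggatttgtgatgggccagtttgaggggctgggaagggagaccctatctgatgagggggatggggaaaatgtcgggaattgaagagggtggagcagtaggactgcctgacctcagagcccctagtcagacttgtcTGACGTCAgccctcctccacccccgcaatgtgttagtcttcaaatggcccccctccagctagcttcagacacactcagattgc
Vcan: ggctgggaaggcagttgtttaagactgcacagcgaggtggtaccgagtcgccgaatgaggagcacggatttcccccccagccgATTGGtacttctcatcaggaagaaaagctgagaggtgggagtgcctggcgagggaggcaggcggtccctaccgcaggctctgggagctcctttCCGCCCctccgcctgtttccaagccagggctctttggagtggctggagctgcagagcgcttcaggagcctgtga
Cd44: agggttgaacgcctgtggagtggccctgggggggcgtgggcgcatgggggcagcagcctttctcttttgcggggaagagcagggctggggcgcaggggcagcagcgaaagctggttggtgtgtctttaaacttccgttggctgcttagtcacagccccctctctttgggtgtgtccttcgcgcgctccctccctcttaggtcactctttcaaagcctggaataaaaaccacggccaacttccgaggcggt
The Has1 window held 1 match, the palindromic CRE, which starts 83 bases before the start site. That motif occurred in 1.59% of 33469 promoter windows of the same length. In the Vcan window a GC box and a CCAAT match were found, which occurred in 30.5% and 34% of windows. The Cd44 window held 0 matches to the 7 motifs. These letters are a description of the windows and not sites of binding.

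Has2, the synthase known to dominate in fibroblasts, was higher on both matrices, as were Cd44 and Vcan. Against plastic, Has2 was 3.44-fold higher on Matrigel and 9.44-fold higher on collagen I. Has1 was lower on Matrigel, whereas Hyal1 and Hyal2 did not pass on either matrix. Of the 6 genes, 3 rose and 1 fell on Matrigel, where 10.4% of all genes passed, 4.52% higher and 5.85% lower (655 and 849 genes). With each array re-centred on its median that split was 512 higher and 1036 lower, with the same 4 calls among the 6 genes. On collagen I, 3 rose and 0 fell by limma, where 6.12% of all genes passed, 2.95% higher and 3.17% lower. There 4 of the 6 had an unadjusted p under 0.05 in limma, as had 2763 of all 14506 genes. Groups did not overlap for 4 of the 6 genes on Matrigel and 3 on collagen I against plastic, and for 2 between the matrices, where this held for 30.2%, 17.2% and 29.5% of all genes. The median difference of the 6 genes from plastic was 0.26 on Matrigel and 0.31 on collagen I, against -0.01 and 0.00 over all genes. Since the genes were listed with results in view, nothing is read from these counts or medians.

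**Figure D1:**
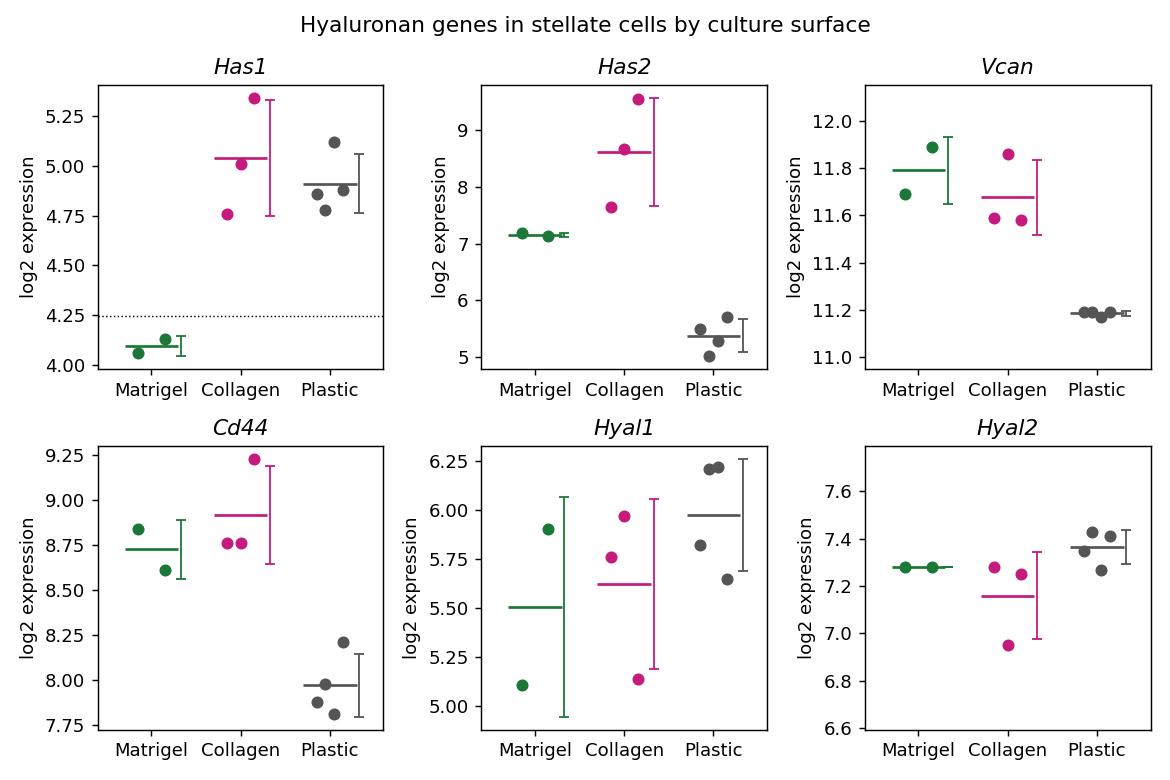
Log2 expression of the 6 genes (y axes, a separate range in each panel) on each array, by surface (x axes); points are arrays, lines are means, bars are SD, and the dotted line is log2 4.25, the 40th percentile of mean level over all genes. Has2, Vcan and Cd44 were higher on every Matrigel and collagen I array than on every plastic array, and Has1 was lowest on the 2 Matrigel arrays.

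Has2 read 7.18 and 7.13 on the Matrigel arrays A and S, and 5.49, 5.02, 5.29 and 5.70 on the plastic arrays A, P, S and Z. Both Matrigel arrays lay above all 4 plastic arrays and close to each other. The fitted difference was 1.78 ± 0.43 (log2, SE) by limma (adjusted p = 0.0330). On collagen I it read 7.64, 8.67 and 9.54 on arrays A, P and Z. These 3 values were well apart from each other but all above every plastic array, and the difference was 3.24 ± 0.38 (limma adjusted p = 0.00182). Within letters, as a description, collagen I exceeded plastic by 2.15 for A, 3.64 for P and 3.84 for Z. Matrigel exceeded plastic by 1.69 for A and 1.84 for S. The call on Matrigel was lost without any single plastic array, either Matrigel array or collagen array P (limma adjusted p from 0.0566 to 0.150), while the difference stayed between 1.67 and 1.89. The call on collagen I held without each array in turn.

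Between the matrices, the mean of Has2 was 7.16 on Matrigel (SD 0.03, n = 2) and 8.61 on collagen I (SD 0.95, n = 3). The groups did not overlap, but the difference of -1.46 ± 0.45 did not pass in limma (adjusted p = 0.144; 95% interval -2.48 to -0.43). Collagen array A was the nearest to the Matrigel arrays. Without it the difference was -1.94 and passed in limma (adjusted p = 0.0350).

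Has1, a second synthase, had another pattern. It read 4.06 and 4.13 on the Matrigel arrays A and S and 4.86, 4.78, 5.12 and 4.88 on the plastic arrays A, P, S and Z. Both Matrigel values lay under log2 4.25, the 40th percentile of mean level over all genes, and are called dim here, so the fall is given as at least 0.66 on the log2 scale (limma adjusted p = 0.0131). This bound is a distance between means and has no error of its own. Collagen I gave 4.76, 5.01 and 5.34 on arrays A, P and Z, which overlapped with plastic, and the difference of 0.13 ± 0.14 did not pass (limma adjusted p = 0.699; 95% interval -0.19 to 0.44). Its sign turned without collagen array Z (-0.03). Against collagen I, Has1 was lower on Matrigel by at least 0.79 (limma adjusted p = 0.0261), the only 1 of the 6 genes to pass in that comparison, where 2.67% of all genes passed, 1.21% higher and 1.45% lower on Matrigel (176 and 211 genes, or 122 and 259 with re-centred arrays). The fall against plastic did not pass without Matrigel array A or S (limma adjusted p = 0.0861 and 0.0556). The fall against collagen I did not pass without either Matrigel array, collagen array P or plastic array A or Z (limma adjusted p from 0.0514 to 0.102), nor with only the arrays of those surfaces in the fit (adjusted p = 0.163) or the title letter as a fixed replicate block (adjusted p = 0.0852).

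The third synthase gene, Has3, was dim on all 3 surfaces, with means of 3.98 on Matrigel, 3.97 on collagen I and 3.79 on plastic, and passed in none of the 3 limma comparisons (adjusted p = 0.371, 0.397 and 0.983, with Matrigel against collagen I last). Levels of different genes are not compared, because each entry has its own probes.

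Vcan encodes versican, a large chondroitin sulfate proteoglycan whose end domain binds hyaluronan. It read 11.69 and 11.89 on the Matrigel arrays and 11.19, 11.19, 11.17 and 11.19 on the plastic arrays. The plastic arrays were nearly the same, with an SD of 0.009, and both Matrigel arrays were above them. On Matrigel the rise was 0.60 ± 0.10 (limma adjusted p = 0.00645), or 1.52-fold. Collagen I arrays A, P and Z read 11.59, 11.86 and 11.58, a rise over plastic of 0.49 ± 0.09 (limma adjusted p = 0.0118). Matrigel and collagen I arrays overlapped, and their difference of 0.12 ± 0.10 did not pass (limma adjusted p = 0.626; 95% interval -0.12 to 0.35). Both rises passed without each array in turn.

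Cd44 encodes the receptor that anchors the hyaluronan coat to the cell and is also carried by leukocytes. It read 8.84 and 8.61 on the Matrigel arrays A and S and 7.88, 7.98, 7.81 and 8.21 on the plastic arrays A, P, S and Z. Both Matrigel arrays were above all plastic arrays, by 0.75 ± 0.16 on average (limma adjusted p = 0.0208). The collagen I arrays A, P and Z read 8.76, 8.76 and 9.23, again without overlap with plastic, and the rise was 0.94 ± 0.14 (limma adjusted p = 0.00596), or 1.92-fold. Matrigel and collagen I overlapped (difference -0.19 ± 0.17, limma adjusted p = 0.635, 95% interval -0.58 to 0.20). Leaving out Matrigel array A or S or plastic array A ended the call on Matrigel (limma adjusted p = 0.144, 0.0504 and 0.0582), at differences of 0.64, 0.87 and 0.73. The call on collagen I held without each array in turn.

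Neither hyaluronidase passed in any comparison. Hyal1 read 5.11 and 5.90 on Matrigel, 5.76, 5.97 and 5.14 on collagen I and 5.82, 6.21, 6.22 and 5.65 on plastic. All 3 groups overlapped. The difference from plastic was -0.47 ± 0.29 on Matrigel (limma adjusted p = 0.389; 95% interval -1.13 to 0.19) and -0.35 ± 0.26 on collagen I (limma adjusted p = 0.532; 95% interval -0.93 to 0.23). Hyal2 read 7.28 and 7.28 on Matrigel, 7.28, 6.95 and 7.25 on collagen I and 7.35, 7.43, 7.27 and 7.41 on plastic. Its difference from plastic was -0.08 ± 0.10 on Matrigel (limma adjusted p = 0.708; 95% interval -0.31 to 0.15) and -0.21 ± 0.09 on collagen I (limma adjusted p = 0.259; 95% interval -0.411 to -0.002). Changes of 2-fold in Hyal2, which is 1 on the log2 scale, lie outside these intervals, whereas a 2-fold fall of Hyal1 on Matrigel lies inside.

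**Figure D2:**
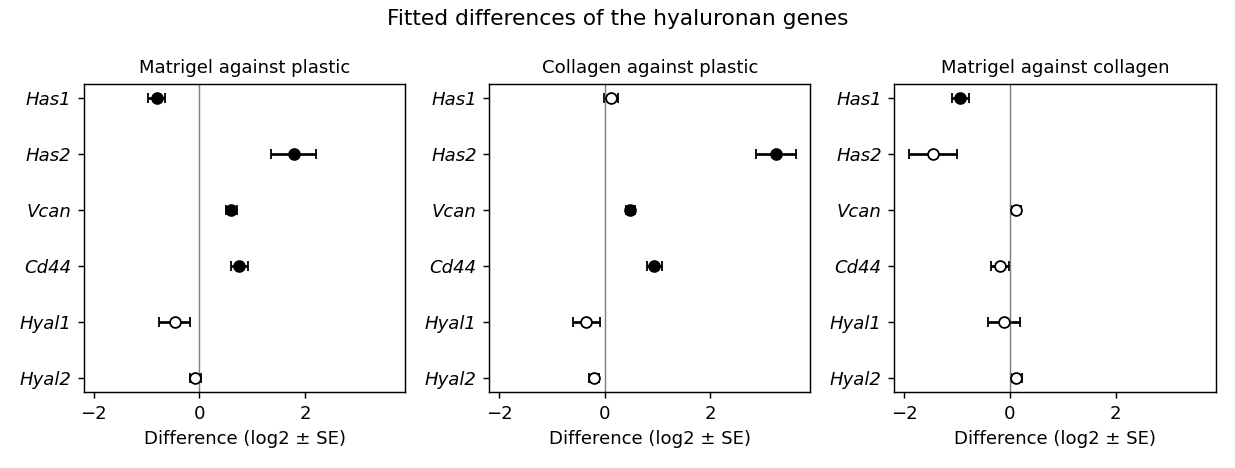
Fitted log2 differences (x axes, points with SE bars) of the 6 genes (y axes) in each of the 3 comparisons; filled points passed an adjusted p of 0.05 in limma and open points did not. Has2 had the largest difference from plastic among the 6 on both matrices, 1.78 on Matrigel and 3.24 on collagen I.

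Most other genes of the pathway, listed by role, did not pass. Beside the members the list named 52 genes, of which 42 had a value and 15 had a mean under log2 4.25. On Matrigel 4 of the 42 rose and 5 fell, on collagen I 7 rose and 6 fell, and between the matrices 1 was higher and 1 lower on Matrigel. Over all genes 10.4%, 6.12% and 2.67% passed in these 3 comparisons. Their median difference was -0.02 on Matrigel and 0.01 on collagen I, against -0.01 and 0.00 over all genes.

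Genes that supply the precursors were lower on both matrices where they passed. Of 6 measured genes for nucleotide sugar supply, 2 fell on both matrices and 0 rose by limma. Over all genes, 5.85% fell on Matrigel and 3.17% on collagen I. Ugdh, which oxidises UDP-glucose to the UDP-glucuronic acid used by the synthases, read 10.77 and 10.84 on Matrigel, 11.01, 11.13 and 11.31 on collagen I and 11.71, 11.55, 11.52 and 11.67 on plastic. All matrix arrays lay below all plastic arrays, and Ugdh fell by 0.81 ± 0.10 on Matrigel and by 0.46 ± 0.09 on collagen I (limma adjusted p = 0.00203 and 0.0156). Ugp2, which makes UDP-glucose, fell by 0.93 ± 0.14 on Matrigel and by 0.78 ± 0.12 on collagen I (limma adjusted p = 0.00449 and 0.00652). Gfpt2, an entry enzyme of the route to UDP-N-acetylglucosamine, differed by -0.28 on Matrigel and -0.20 on collagen I and did not pass (limma adjusted p = 0.209 and 0.369). Gfpt1, on the same list, differed by 0.18 and 0.03 on these surfaces (limma adjusted p = 0.111 and 0.836). Pgm3 differed by -0.34 and -0.19 and Gnpnat1 by 0.04 and 0.09, also without passing. The fall of Ugdh on collagen I did not pass without collagen array A or P or plastic array A (limma adjusted p from 0.0530 to 0.0667).

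Among 10 measured genes for breakdown 1 passed, where over all genes 10.4% passed on Matrigel and 6.12% on collagen I. This was Cemip2, which was higher on both matrices. Its product, also called TMEM2, has been described in mouse as a hyaluronidase at the cell surface. It read 10.23 and 10.06 on Matrigel, 9.68, 9.70 and 9.73 on collagen I and 8.04, 7.97, 7.96 and 7.94 on plastic. The 3 surfaces did not overlap and the arrays of each were close together. The rise over plastic was 2.17 ± 0.07 on Matrigel (limma adjusted p = 6.14e-06), or 4.50-fold, and 1.73 ± 0.06 on collagen I (limma adjusted p = 1.44e-05), or 3.32-fold. Matrigel exceeded collagen I by 0.44 ± 0.07 (limma adjusted p = 0.0245). That last call was lost without any collagen array or without Matrigel array A (limma adjusted p from 0.0542 to 0.0857), with only the arrays of the 2 surfaces in the fit (adjusted p = 0.136), with each array re-centred on its median (adjusted p = 0.0587) and with the title letter as a fixed replicate block (adjusted p = 0.111). Hyal3, which overlaps Hyal1 in the GRCr8 annotation, differed by -0.01 on Matrigel and -0.17 on collagen I and did not pass (limma adjusted p = 0.974 and 0.448).

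Of 13 measured hyaluronan-binding matrix genes 10 were dim. Beside Vcan, Ptx3 fell on both matrices; it encodes pentraxin 3, which in mouse helps to assemble the hyaluronan matrix around the ovulated egg. It read 9.51 and 10.95 on Matrigel, 10.43, 10.26 and 10.20 on collagen I and 11.81, 11.39, 11.71 and 11.63 on plastic. All matrix arrays were below plastic, and Ptx3 fell by 1.40 ± 0.32 on Matrigel and by 1.34 ± 0.29 on collagen I (limma adjusted p = 0.0283 and 0.0282). With the title letter as a fixed replicate block the call on collagen I was lost (limma adjusted p = 0.0604). It was also lost without any one collagen or plastic array (adjusted p from 0.0510 to 0.0995), and the call on Matrigel without Matrigel array A, collagen array P or plastic array A, S or Z (adjusted p from 0.0504 to 0.0759), with a difference of -0.68 without Matrigel array A. A fit of Matrigel and plastic arrays alone also lost it (adjusted p = 0.0867). Hapln3, a link protein gene, passed on collagen I and between the matrices in limma, but its means of 3.09 on Matrigel, 3.90 on collagen I and 3.19 on plastic were all dim, so no size is given. Its call on collagen I was lost without collagen array P or Z (limma adjusted p = 0.0672 and 0.0732), and its call between the matrices without any array other than Matrigel array S (adjusted p from 0.0570 to 0.147). Hmmr, a hyaluronan-binding protein gene expressed in dividing cells, differed by -0.37 on Matrigel and -0.12 on collagen I and did not pass (limma adjusted p = 0.0977 and 0.630).

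Proteases that cut versican went in opposite directions. Adamts4 rose by 1.24 ± 0.22 on Matrigel and 1.82 ± 0.20 on collagen I (limma adjusted p = 0.0102 and 0.00123). By contrast Adamts5 fell by 2.87 ± 0.40 and 2.45 ± 0.35 on Matrigel and collagen I (limma adjusted p = 0.00342 and 0.00473), and Adamts1 by 2.09 ± 0.28 and 1.73 ± 0.24 (limma adjusted p = 0.00275 and 0.00438). Adamts15 read 6.55 and 8.09 on Matrigel, 5.91, 5.59 and 5.04 on collagen I and 8.06, 7.27, 8.25 and 7.87 on plastic, a fall of 2.35 ± 0.38 on collagen I (limma adjusted p = 0.00851) and a difference of -0.54 ± 0.44 on Matrigel that did not pass (limma adjusted p = 0.525). Adamts9, the fifth gene measured, differed by -0.37 on Matrigel and -0.03 on collagen I and did not pass (limma adjusted p = 0.424 and 0.964). The rise of Adamts4 on Matrigel did not pass without either Matrigel array (limma adjusted p = 0.0598 and 0.0615).

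Of 8 measured CD44 partners and sheddases, 2 rose on Matrigel and 4 on collagen I by limma, and 0 fell on either. Over all genes 4.52% and 2.95% rose. In either direction, 6 and 4 of the 8 had an unadjusted p under 0.05 in limma, as had 3503 and 2763 of 14506 genes. Among the 6 on Matrigel, Rdx was lower by 0.21 ± 0.07 and Nf2 higher by 0.32 ± 0.12. Neither passed (limma adjusted p = 0.0914 and 0.152). Spp1, which encodes osteopontin, a secreted CD44 ligand, read 12.29 and 12.12 on Matrigel, 11.90, 11.43 and 11.98 on collagen I and 9.67, 8.37, 9.61 and 9.69 on plastic. All matrix arrays were above plastic, by 2.87 ± 0.36 on Matrigel and 2.44 ± 0.32 on collagen I (limma adjusted p = 0.00226 and 0.00299). Mmp9, a gelatinase known to bind CD44, rose by 3.11 ± 0.53 on Matrigel and 2.34 ± 0.47 on collagen I (limma adjusted p = 0.00825 and 0.0211). Mmp14, a membrane protease that can shed CD44, rose by 1.29 ± 0.19 on collagen I (limma adjusted p = 0.00510), and differed by 0.69 ± 0.21 on Matrigel without passing (limma adjusted p = 0.0794). Adam17, a further sheddase gene, rose by 0.77 ± 0.15 on collagen I (limma adjusted p = 0.0217) and differed by 0.62 ± 0.18 on Matrigel (limma adjusted p = 0.0613). Mmp9 on Matrigel did not pass without Matrigel array A (limma adjusted p = 0.0773). On collagen I, Mmp9 did not pass without collagen array P or plastic array A, P or Z (limma adjusted p from 0.0578 to 0.0668), nor Adam17 without collagen array A or Z or plastic array P or S (limma adjusted p from 0.0527 to 0.0838). Mmp14 and Adam17 were not shown to differ between the matrices (limma adjusted p = 0.222 and 0.744).

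**Figure D3:**
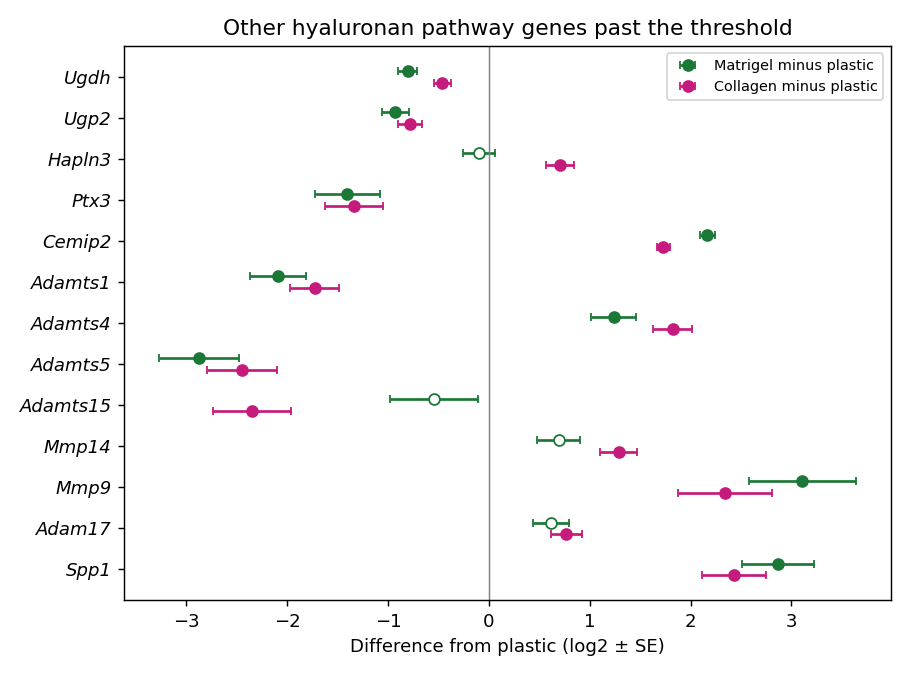
Fitted log2 differences from plastic (x axis, points with SE bars) of the 13 other pathway genes (y axis) that passed on Matrigel (green) or collagen I (magenta); filled points passed an adjusted p of 0.05 in limma. Ugdh, Ugp2, Ptx3, Adamts1 and Adamts5 were lower and Cemip2, Adamts4, Mmp9 and Spp1 higher on both matrices, while Hapln3, shown here, was dim on all surfaces.

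The comparisons with plastic share the same 4 plastic arrays, so the likeness of the Matrigel and collagen I values is in part shared by construction. Over the 9 arrays the genes closest in pattern, by Pearson correlation among genes with a mean above log2 4.25, are given as a description, since arrays of one surface share their surface. For Has2 they were Sema7a (r = 0.972), Runx1 (r = 0.967) and Bltp3b (r = 0.966). For Cd44 they were Tgfb1 (r = 0.994), the gene of transforming growth factor beta 1, Postn (r = 0.989), the periostin gene, and the fibronectin receptor subunit gene Itga5 (r = 0.989). Vcan was closest to Pan2 (r = 0.969), Mrc2 (r = 0.967) and the immediate-early gene Egr1 (r = 0.962). Has1 was closest to the aminoacyl-tRNA synthetase genes Eprs1 (r = 0.986) and Cars1 (r = 0.975) and to Slc7a1 (r = 0.966), which encodes a transporter of cationic amino acids. Hyal1 was closest to Apc2 (r = 0.973), Ccl7 (r = 0.970) and Fads1 (r = 0.965), and Hyal2 to Zfp709 (r = 0.973), Zdhhc7 (r = 0.954) and Ppp2r2a (r = 0.954). Among the members Has2 and Cd44 correlated at r = 0.942, Has2 and Vcan at r = 0.771 and Has1 and Has2 at r = 0.135.

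Markers of other cell types were also read, and several islet and some acinar markers rose on Matrigel. The mean over 14 macrophage markers lay between 7.45 and 7.91 on Matrigel, 6.13 and 7.13 on collagen I and 6.18 and 7.46 on plastic. Of these markers 1 rose on Matrigel (Itgam) and 0 on collagen I by limma. In either direction 7 and 1 of the 14 had an unadjusted p under 0.05, as had 3503 and 2763 of all 14506 genes. The median difference of the 14 markers from plastic was 1.02 on Matrigel and -0.29 on collagen I. The mean over 9 islet markers ran from 7.21 to 8.40 on Matrigel, 5.88 to 6.66 on collagen I and 5.49 to 6.62 on plastic. By limma 6 of them rose on Matrigel against 0 on collagen I, where 4.52% and 2.95% of all genes rose. On collagen I 0 of 9 had an unadjusted p under 0.05. The mean over 8 acinar markers ran from 4.28 to 5.18 on Matrigel, 3.54 to 3.97 on collagen I and 3.49 to 3.80 on plastic, and 2 rose on Matrigel. Mesothelial cells are known to make hyaluronan; the mean over 6 of their markers ran from 4.46 to 4.95 on Matrigel, 4.22 to 4.39 on collagen I and 4.47 to 4.70 on plastic, with Krt19 and Bnc1 dim throughout. Of these 6, Wt1 fell on both matrices (limma adjusted p = 0.00602 and 0.00490) and the others did not pass. On Matrigel Krt18, which was dim on plastic, had a mean higher by at least 0.41 without passing (limma adjusted p = 0.0703). Krt8 and Msln differed from plastic there by 0.46 and -0.02 (limma adjusted p = 0.229 and 0.980). Krt18 and Krt8 on Matrigel did not overlap with plastic. Of 5 endothelial markers Pecam1, Cdh5, Kdr and Emcn were dim on all 9 arrays, whereas Tek read between 6.39 and 7.60, and 0 of the 5 passed on either matrix by limma or had an unadjusted p under 0.05. On collagen I the macrophage mean was 6.13 on array A, 6.20 on array P and 7.13 on array Z. Collagen array Z also had the highest Has2 and Cd44. On plastic the order differed: array S had the highest macrophage mean (7.46) and the lowest Cd44 (7.81). Plastic array Z, with a macrophage mean of 6.39, had the highest Has2 (5.70) and Cd44 (8.21) of the plastic arrays. The part of these other cells in the results was not tested, and in bulk samples fewer cells of a type and less RNA per cell cannot be told apart.

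**Figure D4:**
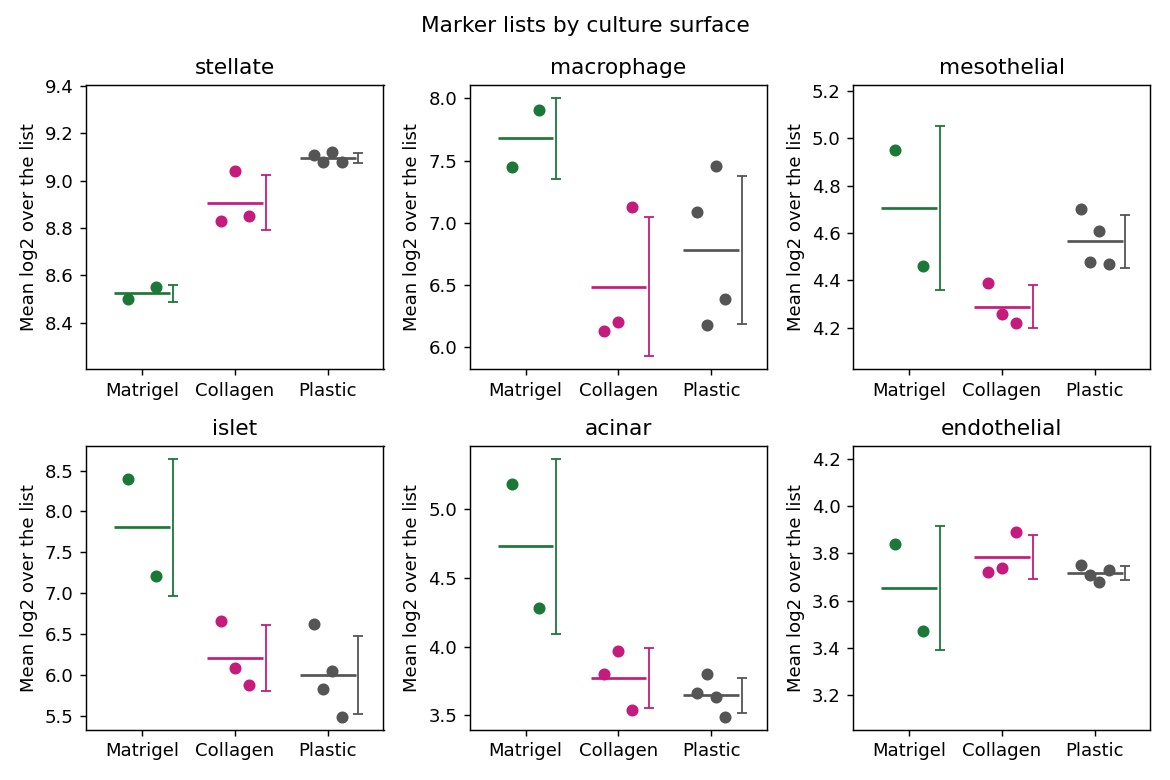
Mean log2 expression over each marker list (y axes) on each array, by surface (x axes); points are arrays, lines are means and bars are SD. The islet and acinar means were higher on both Matrigel arrays than on all other arrays, while the macrophage mean on collagen I lay between 6.13 and 7.13 and overlapped with plastic.

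The mean over 8 stellate markers ran from 8.50 to 8.55 on Matrigel, 8.83 to 9.04 on collagen I and 9.08 to 9.12 on plastic. It was lower on every matrix array than on every plastic array. The median difference of these markers from plastic was -0.29 on Matrigel and 0.06 on collagen I. On collagen I only Des and Lrat had lower means than on plastic, while the others were level or higher. By limma 1 of the 8, Des, fell on each matrix and 0 rose, where 5.85% and 3.17% of all genes fell. Vim, Col1a1, Col1a2 and Pdgfrb read 10.06 or more on all 9 arrays. Several macrophage and islet markers were also not dim on any array. Of the macrophage markers, Cd14 read between 9.73 and 11.35 and Cd163 between 7.83 and 10.58 over the 9 arrays. Of the islet markers, Ins1 read between 8.92 and 12.17 and Gcg between 7.92 and 11.49. Others were low, such as Aif1 (3.40 to 4.78) and Chga (3.40 to 4.44). The share of each cell type in the cultures was not tested. Acta2, the smooth muscle actin gene of activated stellate cells, read between 8.95 and 9.43 on Matrigel, 10.13 and 11.33 on collagen I and 9.88 and 11.04 on plastic. Its Matrigel arrays lay below all others, without passing against plastic (difference -1.23 ± 0.39, limma adjusted p = 0.0892). Lrat read between 3.21 and 4.68 on Matrigel, 2.25 and 3.53 on collagen I and 3.66 and 5.85 on plastic, and did not pass (limma adjusted p = 0.567 and 0.168). Des, the desmin gene, fell on both matrices, to between 4.83 and 4.85 on Matrigel and between 5.73 and 6.18 on collagen I, against 6.65 to 6.89 on plastic (limma adjusted p = 0.000208 and 0.00580). Gfap was dim throughout, between 2.45 and 2.90. Array medians lay between 4.08 and 4.18.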

How the data were processed

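The deposited values are log2 expression per probe set, made by the authors with RMA, per the submitters' processing notes. The software version is not given in the sources used here, and neither is a genome build. RMA shares quantiles across arrays, so differences are relative to each array's other genes. Of 29215 entries, 15310 had 1 gene symbol, 323 several and 13582 none. The brightest entry of each gene was kept, which left 14506 genes and set 804 entries aside. A linear model with a mean for each surface was fitted to the 9 arrays together (limma 3.58.1, R 4.3.3), leaving 6 residual degrees of freedom, with moderated variances and Benjamini-Hochberg adjustment over all genes in each comparison. A call is a two-sided adjusted p under 0.05, and intervals are 95% intervals of the same fit. The fit was tested on simulated data. The number of arrays limits the precision.

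Members and lists were chosen with earlier results of these data known. Named were the 7 members, Has3, Hyal3, Hmmr, Cemip (without a value here) and Cemip2 whatever their values, every listed pathway gene that passed and, for each member, the 3 genes closest in pattern. Genes with a group mean under log2 4.25, the 40th percentile, are called dim, and array values under that level were raised to it in computing the bounds printed as "at least". Alternatives were other normalization, filters, entries, moderation, weights, title letter as a block, and leaving out each array. Deviations from the group means correlated between same-letter collagen I and plastic arrays (A, r = 0.196; P, r = 0.234; Z, r = 0.269), so letters were read as pairs there. For Matrigel they were -0.131 for A and 0.406 for S, and letters were not read as pairs. Promoter sequences come from RefSeq, build GRCr8.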

Additional observations from a re-analysis of the deposited data

Results flagged for a closer look

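Within the 4 plastic arrays, 2 of 22 genes checked had 1 array far from the other 3, where chance gives about 1 in 20. Spp1 read 8.37 on plastic array P, the lowest of a range up to 9.69, and both rises of Spp1 over plastic passed without it. Has3, dim on all surfaces, read 3.57 on plastic array A, the lowest of a range up to 3.88.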

How the results depend on the processing

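Collagen I against plastic was the steadiest comparison for the members: 3 passed under every alternative, including without each array in turn. Not all of these alternatives are separate checks. Leaving out either Matrigel array gave the same counts as fitting only the arrays of the 2 surfaces, and each member had 1 entry. Without single arrays the members called on Matrigel against plastic numbered 1 to 4 and between the matrices 0 to 2, and the other pathway genes together with the members 7 to 13 on Matrigel, 12 to 16 on collagen I and 0 to 2 between the matrices. All genes called then ranged from 759 to 1461, 552 to 870 and 68 to 352 in the same 3 comparisons; where a surface was left with 1 array, that array was assumed to vary like the others. Between Matrigel and collagen I the calls of limma fell to 0 of all genes, 0 members and 0 listed genes with only those arrays in the fit (unadjusted p under 0.05: 2094, 1 and 9). Array weights gave 257 genes there. The title letter as a fixed replicate block gave 66 genes and 0 members, and on collagen I it changed no call of a named gene other than Ptx3. Differences near 0 turned sign. Between the matrices Has3 did so with re-centred arrays (-0.037), quantile normalization again (-0.033) and the letter block (-0.014), and Cd44 with the letter block (0.015). Without single arrays Has3 ranged there from -0.12 to 0.141 and Hyal1 from -0.51 to 0.28. On Matrigel against plastic Hyal3 turned with array weights (0.004) and ranged from -0.058 to 0.035 without single arrays, and Has1 on collagen I against plastic from -0.027 to 0.265. Of 964 values of single genes under alternatives, not all from separate fits, 884 kept direction and call. A further 68 lost the call, 1 gained it and 11 changed sign. The cause was not tested.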

Other observations

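Versican carries chondroitin sulfate chains, so genes that assemble them were looked at in a list chosen after seeing the data. Of 17 measured genes, 2 rose and 3 fell on Matrigel, and 5 rose and 1 fell on collagen I, against plastic (limma adjusted p under 0.05), where 10.4% and 6.12% of all genes passed. The median differences were -0.03 on Matrigel and 0.06 on collagen I, against -0.01 and 0.00 over all genes. Chst11, a sulfotransferase gene for chondroitin, rose by 0.85 ± 0.23 on Matrigel and 1.63 ± 0.20 on collagen I (limma adjusted p = 0.0477 and 0.00228). Chst15, which adds a further sulfate, rose by 1.29 ± 0.16 and 0.87 ± 0.14 on the same surfaces (limma adjusted p = 0.00208 and 0.00799). Chsy1, a chain polymerase gene, rose by 0.89 ± 0.19 on collagen I (limma adjusted p = 0.0299). On Matrigel it differed by 0.58 ± 0.22 without passing (limma adjusted p = 0.1455). B3gat3 and Chst12 rose on collagen I by 0.44 ± 0.10 and 0.70 ± 0.11 (limma adjusted p = 0.0329 and 0.00711). Csgalnact2 and Xylt2 fell on Matrigel by 0.68 ± 0.13 and 0.275 ± 0.07 (limma adjusted p = 0.0118 and 0.0418). Dse, whose product converts chondroitin into dermatan sulfate, fell by 0.72 ± 0.12 on Matrigel and 0.48 ± 0.11 on collagen I (limma adjusted p = 0.00732 and 0.0317).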
